A study of Mus musculus with 120 samples.

Results

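The genes described here belong to the amino acid response, the set of amino acid enzymes, transporters, tRNA synthetases and stress regulators that the transcription factor ATF4 controls. A list of 37 such genes was taken by symbol, with the tRNA synthetases also looked up under their older names without the final 1. On the Mouse 430_2 array 36 of the 37 genes had a probe set, among 18194 genes in all, and on the Mouse 430A_2 array 35 of the 37 did, among 12394 genes. Pycr1 was matched on neither array and Mthfd1l was not matched on Mouse 430A_2. For each gene the probe set with the highest mean level was used, and its level in induced cells was set against that in uninduced cells of the same clone.

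When amino acids run short or misfolded protein gathers in the endoplasmic reticulum, stress kinases phosphorylate the initiation factor eIF2alpha. General translation then slows while ATF4 mRNA is translated more, and ATF4 switches on genes for making, importing and charging amino acids. Cells in rich medium, embryonic stem (ES) cells among them, keep part of this program active, since the same genes feed protein synthesis, one-carbon metabolism and glutathione.

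The cells were mouse ES cells of the EB3 line, kept undifferentiated in medium with leukaemia inhibitory factor, in which a single gene of human chromosome 21, or its mouse counterpart, could be overexpressed. Each of 20 experiments used 3 clones of 1 transgene, each clone profiled after tetracycline removal (induced, n = 3) and in tetracycline (uninduced, 0 h, n = 3). The induced state lasted 24 h for Bach1, Dscr1, Dyrk1a, Erg, Ets2, Gabpa, Nrip1, Olig1, Olig2, Pfkl, Pknox1, RIKEN-1810007M14, Runx1, Snf1lk and Zfp295, 39 h for Hunk, Ripk4 and Sim2, and 48 h for Aire and Pdxk. Runx1 was measured on Mouse 430A_2 and the other 19 experiments on Mouse 430_2. In every clone, induced or not, the transgene was a coding sequence with a FLAG tag, placed with a YFP reporter at the ROSA26 locus under a promoter that tetracycline shuts off. The transgenes for Dyrk1a, Snf1lk and Zfp295 carried the human sequence. The Zfp295 and Hunk clones were grown with puromycin above the dose used for selection, which the study did to lower the variation between clones. Cells to be induced were also washed, trypsinized and moved to new dishes, and no clone without a transgene was analysed here, so the transgene, the loss of tetracycline and the handling cannot be told apart. The titles give 24 h for Pfkl while a table of the study lists 39 h, and 24 h was used.

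All 10 ES cell markers checked lay above the array median in every experiment, and between 2 and 9 of the 16 measured markers of other cell types did. A probe set for the induced gene itself was found in all 20 experiments, but only in Runx1 was one higher with an adjusted p under 0.05, and the induced arrays lay wholly above the uninduced ones in 5 experiments (Dscr1, Dyrk1a, Pdxk, Ripk4, Runx1). The cassettes hold coding sequence only, so a probe set outside it does not see the transgene. The study measured the transgenes by quantitative PCR with and without tetracycline and reports their induction. Its western blots for the FLAG tag covered part of the 20 genes, Pknox1 among them. The study reports a protein band for every gene tested in this way. In the Pknox1 experiment the Pknox1 probe sets were lower in the arrays labelled induced (by 1.21 on the log2 scale at the smallest), against the label. The arrays of the 2 states did not overlap, but the difference did not pass the test (adjusted p = 0.771 for that probe set). The labels were kept, and values there are given for arrays labelled induced. Between 32 and 35 of the measured ATF4-response genes lay above the array median in each experiment. Slc7a11, the cystine importer, was the one below the lower quartile. In extracts of whole cultures, fewer cells of a type and less RNA per cell cannot be told apart.

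ATF4, paired with a C/EBP factor, binds a composite of a C/EBP and an ATF site, and many of its known targets carry one near their start. RefSeq promoter windows (GRCm38.p6, 250 bases before to 50 after the start of the transcript, 300 in all) were found for 31 of the 37 genes, and the letters TGATGNAA, read on the other strand as TTNCATCA, were searched on both strands. A match stood in 13 of these 31 genes (41.9%), against 1219 of all 27025 genes with a window (4.51%). Matches of genes that recur in the results below are shown 5′ to 3′ on the strand of the gene, with the matching letters in capitals and 10 bases on either side, for Chac1 at chr2:119351039-119351066 (+), Trib3 at chr2:152344029-152344056 (-), Nupr1 at chr7:126625563-126625590 (-), Atf3 at chr1:191183426-191183453 (-), Vldlr at chr19:27216810-27216837 (+), Slc1a4 at chr11:20332700-20332727 (-), Pck2 at chr14:55540153-55540180 (+) and Asns at chr6:7693215-7693242 (-).
Chac1: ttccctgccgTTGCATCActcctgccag
Trib3: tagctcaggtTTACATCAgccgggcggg
Nupr1: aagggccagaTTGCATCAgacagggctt
Atf3: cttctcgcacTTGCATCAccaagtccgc
Vldlr: gcagcaatagTTGCATCAgcgctcctag
Slc1a4: gcctcctgcgTTGCATCAtctccagcct
Pck2: gccttcaaagTTACATCAgtatcttaca
Asns: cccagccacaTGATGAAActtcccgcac
The match of Slc1a4 began 4 bases before the start, that of Vldlr 200 bases before it, and that of Trib3 lay just inside the transcript. Further matches stood, among others, in Pycr1, Slc7a11, Got1 and Gars1, and none of these letters stood in the windows of Atf4, Atf5, Ddit3, Mthfd2, Gpt2, Psph or 12 further genes. A match is a description of the letters and says nothing on binding in these cells.

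Across the 20 experiments the ATF4-response genes were more often lower than higher after induction. Of 719 differences between induced and uninduced cells, 528 (73.4%) were below 0. The median over the genes was below 0 in 18 of 20 experiments, with a range of -0.41 to 0.10 on the log2 scale, whereas the median over all genes lay between -0.03 and 0.02. The Pknox1 arrays labelled induced are among the 18. In 12 experiments the median was below 0 in each of the 3 clones, and in 1 (Dyrk1a) it was above 0 in each. Single genes passed the test (limma, adjusted p under 0.05 over all probe sets of the array) 47 times, 45 of them lower and 2 higher. These calls came from 6 experiments, Aire, Erg, Runx1, Olig2, Pdxk and Sim2, and 24 of the genes were called at least once.

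**Figure D1:**
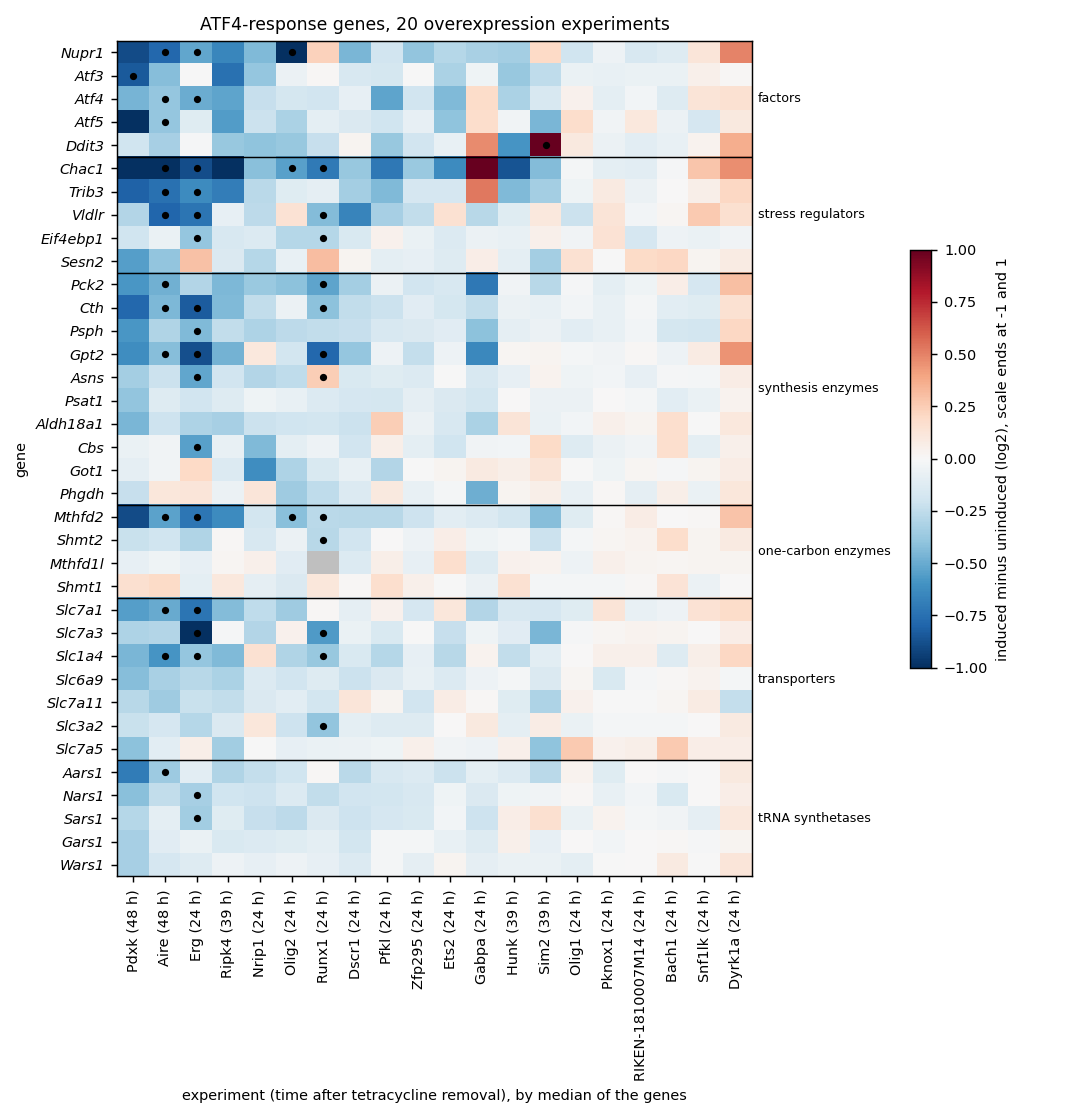
Induced minus uninduced log2 level of each measured ATF4-response gene (rows) in each of the 20 experiments (columns, ordered by the median of the genes), with dots on the 47 calls at adjusted p under 0.05. Most cells of the map are below 0 from Pdxk to Olig2, while the Dyrk1a column is mostly above 0.

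**Figure D2:**
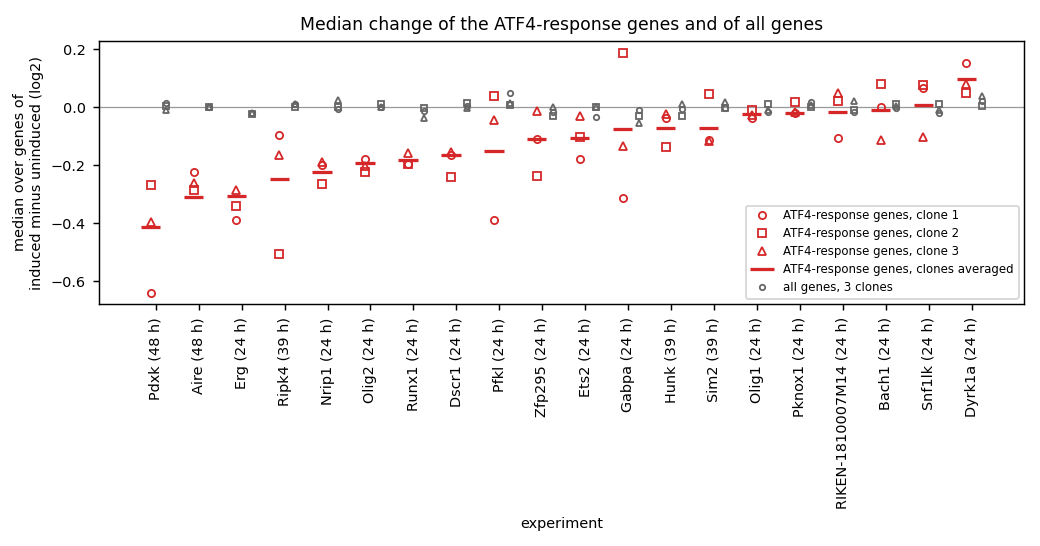
Median over the ATF4-response genes of the induced minus uninduced log2 difference in each clone (red symbols) and for the clone average (red line), beside the medians over all genes (grey), for each experiment. The red lines run from -0.41 in Pdxk to 0.10 in Dyrk1a.

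Aire is a transcription factor known for the display of tissue antigens in the thymus. After 48 h of Aire induction 13 of 36 genes were called lower and none higher, against 3.93% of all probe sets called in either direction and 1.48% called lower. The median over the genes was -0.31, and by clone it was -0.22, -0.28 and -0.26. The stress regulators had the lowest median of the roles (-0.75), and all 5 factors, all 5 stress regulators, all 7 transporters and all 5 tRNA synthetases were below 0. Chac1, a glutathione-degrading enzyme strongly induced by ATF4 under stress, had log2 levels of 8.67, 9.12 and 9.22 in induced cells, against 10.28, 10.19 and 10.16 in uninduced cells. The groups did not overlap, and the difference was -1.21 ± 0.12 (SE, n = 3 clones, adjusted p = 0.00391). Nupr1, a small stress-induced nuclear protein, had 8.71, 8.82 and 9.30 in induced cells, against 9.56, 9.64 and 9.98 in uninduced cells, a difference of -0.79 ± 0.07 (adjusted p = 0.00339). Vldlr, a lipoprotein receptor that ATF4 also controls, had 6.09, 5.81 and 6.11 in induced cells and 6.72, 6.88 and 6.79 in uninduced cells, a difference of -0.79 (adjusted p = 0.0078). Each induced array of these genes lay below every uninduced one.

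The other genes called lower in Aire cells spanned every role. They were Trib3, a pseudokinase that restrains ATF4 (-0.75), the neutral amino acid transporter Slc1a4 (-0.59), the mitochondrial folate enzyme Mthfd2 (-0.54), the arginine transporter Slc7a1 (-0.51), Pck2, the mitochondrial form of phosphoenolpyruvate carboxykinase (-0.48), the cysteine-making enzyme Cth (-0.45), the alanine aminotransferase Gpt2 (-0.42), the factor Atf5 (-0.39), Atf4 itself (-0.39, adjusted p = 0.0474) and the alanyl-tRNA synthetase Aars1 (-0.36). Of the ES cell markers 1 of 10 was called, Fgf4, which was higher. The summed log2 level of the 10 markers was 122.96 to 123.64 in induced and 122.08 to 122.93 in uninduced cells. Of 16 markers of other cell types 2 were called lower, Pax6 (-0.81) and Cdx2 (-0.40), with sums of 88.19 to 89.14 in induced and 88.68 to 90.07 in uninduced cells. The part of the markers in the result was not tested. Without clone 3 the count of called genes was 3, against 13 without clone 1 and 14 without clone 2. Of all probe sets, 0.244%, 4.42% and 4.49% were called in these fits, in the same order. Without the pairing of the clones no gene of the list was called in Aire, and 5 of all 45101 probe sets were.

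Erg cells had the most calls. Erg is an ETS-family transcription factor of blood and vessel cells. After 24 h, 17 of 36 genes were called lower and none higher, where 12.0% of all probe sets were called in either direction and 6.28% lower. The median was -0.31, and by clone -0.39, -0.34 and -0.28. Slc7a3, a cationic amino acid transporter abundant in ES cells, had log2 levels of 9.96, 10.73 and 10.03 in induced cells, against 11.47, 11.77 and 11.39 in uninduced cells. This was the largest difference of the list in Erg cells, -1.30 ± 0.10 (SE, n = 3, adjusted p = 0.000325). Chac1 had 6.40, 7.0 and 6.67 in induced cells and 7.37, 7.25 and 8.11 in uninduced cells, with a difference of -0.89 ± 0.19 (adjusted p = 0.0237). Gpt2 had 8.42, 8.47 and 8.59 in induced cells, against 9.49, 9.27 and 9.34 in uninduced cells, with a difference of -0.88 ± 0.09 (adjusted p = 0.00102). The groups did not overlap for any of these 3 genes.

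Of the synthesis enzymes 5 of 10 were called lower in Erg cells. Besides Gpt2 these were Cth (-0.83) and Cbs (-0.54), which turn homocysteine into cysteine, the asparagine synthetase Asns (-0.52) and Psph, the last enzyme of serine synthesis (-0.44). Also called lower were Vldlr (-0.73), Slc7a1 (-0.73), Mthfd2 (-0.72), Trib3 (-0.63), Nupr1 (-0.52), Atf4 (-0.50), the translation repressor Eif4ebp1 (-0.39), Slc1a4 (-0.38) and the seryl- and asparaginyl-tRNA synthetases Sars1 (-0.34) and Nars1 (-0.33). ES cell markers were lower in the same arrays, 6 of 10 being called (Nanog by the most, -1.13), with a summed log2 level of 116.90 to 118.20 in induced and 120.76 to 122.18 in uninduced cells. Of 16 markers of other cell types 2 were called higher, Thy1 (2.11) and Pecam1 (0.73), with sums of 83.99 to 85.37 in induced and 80.82 to 82.46 in uninduced cells. Thy1 (6.98 to 8.10) and Pecam1 (8.50 to 8.56) were already above the array median (4.96 to 4.98) in uninduced cells. The part of the marker shifts in the result was not tested. The count was 9 to 16 when 1 clone was left out. It was 9 without clone 3, where 5.34% of all probe sets were called, and 10 without clone 1, where 7.54% were.

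Runx1, whose experiment used the Mouse 430A_2 array, is a master regulator of blood formation. Of 35 genes 11 were called lower and 1 higher after 24 h, where 16.2% of all probe sets were called in either direction, 7.65% lower and 8.51% higher. The median was -0.18. Gpt2 had log2 levels of 9.50, 9.22 and 9.23 in induced cells, against 10.10, 10.06 and 10.14 in uninduced cells (difference -0.79 ± 0.08, SE, n = 3, adjusted p = 0.00292). Chac1 had 9.12, 9.37 and 9.25 in induced cells and 9.79, 10.14 and 9.93 in uninduced cells (difference -0.71 ± 0.06, adjusted p = 0.00176). Slc7a3 had 11.56, 11.58 and 11.34 in induced cells and 12.07, 12.12 and 11.98 in uninduced cells (difference -0.56 ± 0.06, adjusted p = 0.00412). In all 3 genes the induced arrays were wholly below the uninduced ones. Asns went the other way, with 13.34, 13.27 and 13.36 in induced cells and 13.07, 13.02 and 13.13 in uninduced cells, a difference of 0.25 ± 0.06 (adjusted p = 0.0449). This call was lost whichever clone was left out (adjusted p = 0.0639 to 0.221).

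The remaining genes called lower in Runx1 cells were Pck2 (-0.53), Vldlr (-0.44), Cth (-0.41), Slc3a2, the heavy chain that several amino acid transporters share (-0.40), Slc1a4 (-0.38), Eif4ebp1 (-0.29), Shmt2, the mitochondrial serine hydroxymethyltransferase (-0.28), and Mthfd2 (-0.27, adjusted p = 0.0496). No tRNA synthetase and no factor was called. Again 7 of 10 ES cell markers were called lower, with sums of 119.60 to 120.72 in induced and 124.48 to 124.81 in uninduced cells, and 2 of 16 markers of other cell types were called higher and 1 lower, with sums of 89.33 to 91.04 in induced and 89.08 to 90.73 in uninduced cells. Of those called higher, Pecam1 (0.85) already lay at 7.33 to 7.61 in uninduced cells, with array medians of 7.11 to 7.19. The part of the marker shift in the result was not tested. Without clone 2 the count of called genes was 5, where 9.50% of all probe sets were called. Without clone 1 it was 7, where 10.7% were.

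In all 3 of Aire, Erg and Runx1, 6 genes were called lower, namely Chac1, Mthfd2, Slc1a4, Cth, Vldlr and Gpt2. Of all probe sets, 1.48% in Aire, 6.28% in Erg and 7.65% in Runx1 were called lower. How many of all probe sets these experiments share as lower was not counted. The experiments also shared tetracycline removal and replating, and ES cell markers were lower in both Erg and Runx1 cells. Aire and Erg shared 10 lower calls, 76.9% of those in Aire and 58.8% of those in Erg. Runx1 shared 7 with Aire (63.6% of its 11) and 8 with Erg (72.7%). Chac1 and Mthfd2 were called lower in 4 experiments each, more than any other gene.

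**Figure D3:**
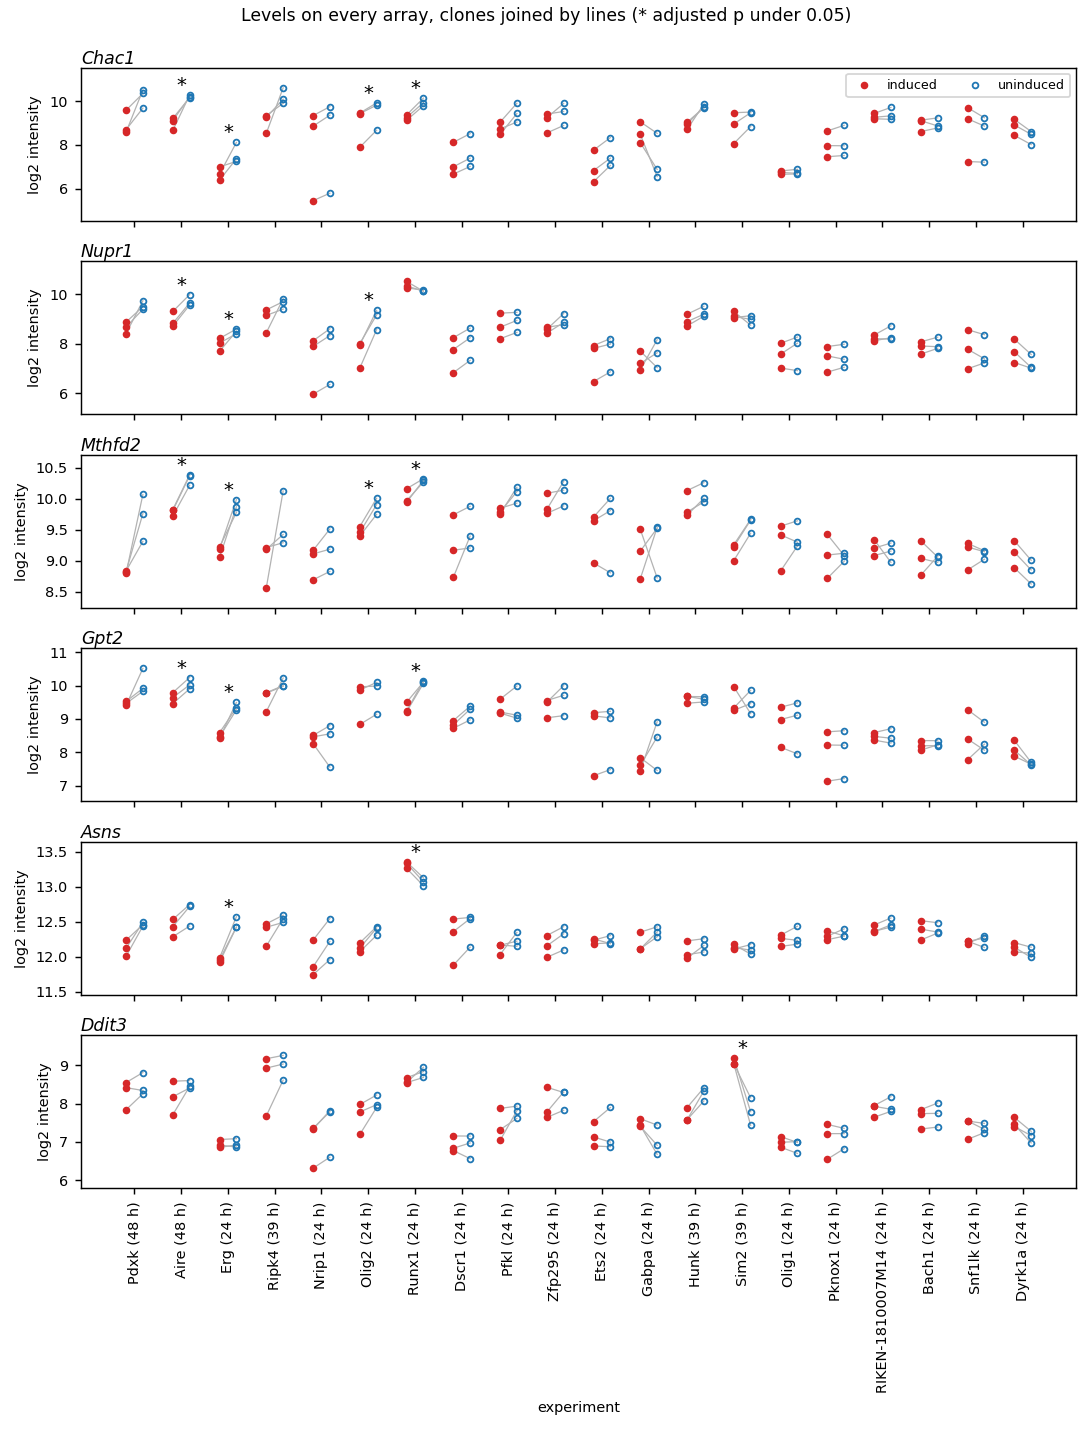
Log2 intensity of 6 ATF4-response genes on every array, induced (filled red) left of uninduced (open blue) in each of the 20 experiments, with lines joining the 2 states of a clone and stars at adjusted p under 0.05. Chac1 is starred in 4 experiments, while the induced arrays of Sim2 stand above the uninduced ones for Ddit3 and those of Runx1 for Asns.

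Olig2 is a transcription factor of oligodendrocyte and motor neuron precursors, and the largest change in Olig2 cells was that of Nupr1. Nupr1 had log2 levels of 8.0, 7.95 and 7.01 in induced cells, against 9.16, 9.35 and 8.57 in uninduced cells, which did not overlap (difference -1.37 ± 0.09, SE, n = 3, adjusted p = 0.00198). Mthfd2 had 9.40, 9.55 and 9.46 in induced cells and 9.75, 10.01 and 9.90 in uninduced cells (difference -0.42, adjusted p = 0.0337). Chac1 had 9.43, 9.46 and 7.90 in induced cells and 9.82, 9.92 and 8.67 in uninduced cells, so its groups overlapped although each clone was lower (difference -0.54, adjusted p = 0.0363). These were the 3 called genes of 36, all lower, where 1.76% of all probe sets were called and 0.938% lower. The median over the list was -0.19. No ES cell marker was called (sums of 121.62 to 122.77 in induced and 121.39 to 122.67 in uninduced cells), and of 16 markers of other cell types Thy1 was called higher (0.51), with sums of 82.11 to 83.35 in induced and 81.24 to 82.86 in uninduced cells. A single gene was called with any of the clones left out, none without the pairing of the clones, and 9 with the mean of all probe sets of a gene. Of all probe sets, 0.0621% to 0.953% were called with a clone left out and 0.175% without the pairing. With the mean, 3.85% of all genes were called.

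Pdxk cells had the lowest median of all experiments but few calls. Pdxk is pyridoxal kinase, which makes the vitamin B6 cofactor that aminotransferases use. The study reports a mild but significant leak of this transgene in tetracycline, so the uninduced cells here were not fully without it. With its own test, the study also lists amino acid biosynthesis among the terms enriched in its changed genes for Pdxk, without a direction. The median at 48 h was -0.41, and 35 of 36 genes were below 0. By clone the median was -0.64, -0.27 and -0.40. The factor Atf3 was the 1 gene called, with log2 levels of 5.79, 5.64 and 5.81 in induced cells, against 6.91, 6.29 and 6.56 in uninduced cells (difference -0.84 ± 0.11, SE, n = 3, adjusted p = 0.035), where 0.264% of all probe sets were called and 0.0333% lower. Chac1 (-1.22), Atf5 (-1.09), Mthfd2 (-0.89), Nupr1 (-0.89), Trib3 (-0.81) and Cth (-0.79) had differences of similar size and did not pass the test, Chac1 with an adjusted p of 0.0641. At an unadjusted p under 0.05, 29 of 36 genes were lower, against 6.86% of all probe sets, and in 26 of 36 all induced arrays lay below all uninduced arrays, against 7.38%. Clone 2, the one with the smallest shift, decided the count, which was 25 without it and 0 without clone 1 or clone 3. The whole array moved too, with 11.1% of all probe sets called without clone 2, 0.02% without clone 1 and 0.00222% without clone 3. No ES cell marker was called, and their summed level was 122.83 to 123.25 in induced and 121.93 to 122.62 in uninduced cells.

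In Sim2 cells, with a transcription factor of neural development, the 1 called gene was higher. This gene, Ddit3, encodes CHOP, a factor that lies downstream of ATF4 in the stress response. Its log2 levels at 39 h were 9.04, 9.18 and 9.04 in induced cells, against 8.15, 7.79 and 7.43 in uninduced cells. The groups did not overlap, and the difference was 1.30 ± 0.15 (SE, n = 3, adjusted p = 0.0327), where 0.914% of all probe sets were called and 0.643% higher. No other gene of the list was called in Sim2 cells, whose median was -0.07. No ES cell marker was called (sums of 119.29 to 121.45 in induced and 118.36 to 120.77 in uninduced cells), and of 16 markers of other cell types Krt7 was called higher (0.94), with sums of 84.57 to 87.07 in induced and 85.47 to 85.90 in uninduced cells. The mean of both Ddit3 probe sets was 0.71 higher with an adjusted p of 0.0548, and Ddit3 was not called without clone 2, without pairing, or with the uninduced clones in the other order that a table of the study gives.

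In the 14 remaining experiments limma called no gene of the list. At an unadjusted p under 0.05, 0 to 17 genes passed, and the share of all probe sets ran from 2.24% (Dscr1) to 14.8% (Dyrk1a). The 2 ranges did not run in parallel. In Dscr1 cells 9 of 36 genes passed, all lower, and in Dyrk1a cells 10 of 36. In Olig1 cells 0 of 36 passed, against 4.25% of all probe sets. Of all probe sets limma called 0.135% in Nrip1, 0.0177% in Ripk4, 0.00665% in Hunk and 0.00222% in Bach1 cells and 0% in the others. Ripk4 cells, with a kinase of skin differentiation, had a median of -0.25 at 39 h, and in 17 of 36 genes the induced arrays lay below all uninduced arrays, where 4.93% of all probe sets did. The clones ranged widely, with medians of -0.10, -0.50 and -0.16, and Chac1 averaged -1.16 with differences of -0.56, -2.07 and -0.83 by clone (adjusted p = 0.58). Nrip1 cells, with a nuclear receptor corepressor, had a median of -0.22, with the aspartate aminotransferase Got1 lowest (-0.62, adjusted p = 0.123) and 14 of 36 genes lower at an unadjusted p under 0.05, against 4.67% of all probe sets. There the ES cell markers had a median of -0.30 with 10 of 10 below 0 and none called, their sums being 113.57 to 118.36 in induced and 119.05 to 120.51 in uninduced cells, and the part of this shift in the result was not tested. The medians were -0.16 in Dscr1, -0.15 in Pfkl, -0.11 in Zfp295 and in Ets2, -0.08 in Gabpa and -0.07 in Hunk cells. In Olig1, RIKEN-1810007M14, Bach1 and Snf1lk cells they lay between -0.02 and 0.01, and in the Pknox1 arrays labelled induced at -0.02.

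Gabpa, an ETS-family factor that drives mitochondrial genes, gave genes of the list in both directions. Chac1 averaged 1.22 higher, with 1.22, 0.52 and 1.92 by clone (adjusted p = 0.216), and Trib3 0.53 and Ddit3 0.47 higher. Pck2 (-0.71, adjusted p = 0.279), Gpt2 (-0.65), the first enzyme of serine synthesis Phgdh (-0.49) and Psph (-0.41) averaged below 0. No probe set of the array was called in this experiment. Without clone 2, whose median was 0.19 against -0.31 and -0.13 in the others, 6 genes of the list were called, 2 higher and 4 lower. In that fit 4.34% of all probe sets were called.

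Dyrk1a cells were the only ones with the median above 0 in every clone. Dyrk1a is a kinase that regulates growth and differentiation. The median over the list was 0.10, by clone 0.15, 0.05 and 0.08, and 33 of 36 genes were above 0, where the median over all genes was 0.02. Nupr1 had log2 levels of 8.18, 7.67 and 7.24 in induced cells and 7.56, 7.04 and 7.01 in uninduced cells, Chac1 had 9.17, 8.91 and 8.44 in induced cells and 8.62, 8.49 and 8.02 in uninduced cells, and Gpt2 had 8.36, 7.88 and 8.06 in induced cells and 7.70, 7.64 and 7.62 in uninduced cells. The groups overlapped for Nupr1 and Chac1 and not for Gpt2. The differences were 0.49 ± 0.10 for Nupr1, 0.47 ± 0.07 for Chac1 and 0.45 ± 0.09 for Gpt2 (SE, n = 3), none past the test (adjusted p = 0.242 for each). No probe set of the array was called, and at an unadjusted p under 0.05 the list had 9 genes higher of 36, against 6.55% of all probe sets. Endoplasmic reticulum chaperones had a median of 0.12 over 19 genes in the same arrays, 12 of 13 other stress-response genes were above 0 with a median of 0.09, and 8 of 10 ES cell markers were, with sums of 120.51 to 121.00 in induced and 119.91 to 120.39 in uninduced cells. None of these genes was called, and the part of the markers in the result was not tested.

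Taking 1 mean difference from each of the 19 experiments on Mouse 430_2, 35 of 36 genes averaged below 0, where 9630 of 18193 genes did. No gene of the list passed the limma test over the experiments, in which 25 of 45100 probe sets (0.0554%) did, and 28 of 36 had an unadjusted p under 0.05, against 13.4% of all probe sets. Psph came nearest, with a mean of -0.19 ± 0.04 (SE, n = 19 experiments, adjusted p = 0.0548) and 18 of 19 experiments below 0. The lowest means were those of Chac1 (-0.37), Nupr1 (-0.34), Mthfd2 (-0.25), Trib3 (-0.23), Pck2 (-0.23), Cth (-0.22, below 0 in 18 of 19), Atf3 (-0.21) and Atf4 (-0.20). Only Shmt1, the cytosolic serine hydroxymethyltransferase, averaged above 0 (0.03). Without the Pknox1 arrays 35 genes were below 0 and none was called (lowest adjusted p 0.0732), while 17 of all probe sets were called. Without Dyrk1a, 5 genes were called lower (Psat1, Psph, Pck2, Aars1 and Nars1), and with Runx1 added, over 22689 shared probe sets, 5 were (Psat1, Psph, Slc6a9, Pck2 and Nars1).

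By role, the median of these means was -0.20 for the factors (Atf4, Atf3, Atf5, Ddit3, Nupr1), -0.16 for the stress regulators (Trib3, Chac1, Sesn2, Vldlr, Eif4ebp1), -0.14 for the transporters, -0.12 for the synthesis enzymes, -0.10 for the tRNA synthetases and -0.03 for the one-carbon enzymes. The median over the 36 genes was -0.13, and that over all genes 0.00. All 5 tRNA synthetases of the list averaged below 0, from -0.17 for Aars1 to -0.06 for Wars1. Among the 14 other cytosolic tRNA synthetases measured, 12 averaged below 0 with a median of -0.06. Kinases and phosphatases of eIF2alpha had a median of -0.02 (8 genes), other stress-response factors and targets -0.03 (13 genes), endoplasmic reticulum chaperones -0.02 (19 genes), other amino acid transporters 0.02 (17 genes) and other amino acid and one-carbon enzymes 0.02 (24 genes). No gene of these lists was called over the experiments.

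**Figure D4:**
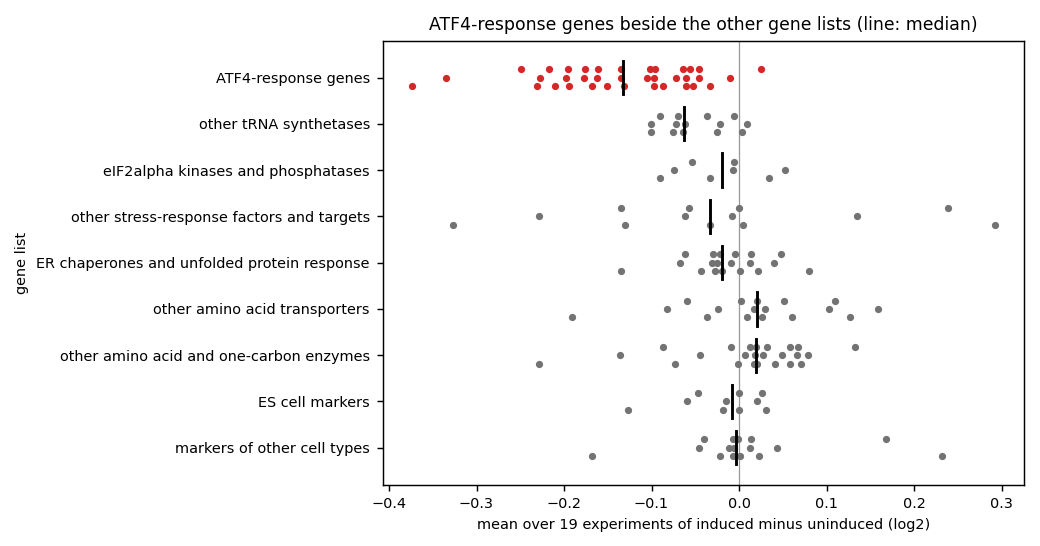
Mean over 19 experiments of the induced minus uninduced log2 difference for each gene (points) of the ATF4-response list and of the other gene lists, with the list median as a line. The ATF4-response genes have a median of -0.13, and the medians of the other lists lie between -0.06 and 0.02.

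The measured genes with a promoter match numbered 12, and 9 of them were called lower in at least 1 experiment, against 10 of the 18 with a window and no match. Their median over the experiments was -0.16, against -0.10 without a match. Mthfd2 and Gpt2, called lower in 4 and 3 experiments, held no match in their windows.

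Genes of the list varied together across the experiments. Over the 19 experiments, each 1 point, the median correlation of a pair of genes was 0.478, and 569 of 630 pairs were above 0. The correlation of genes outside the list was not computed, so these values do not show a trait particular to it. The Pknox1 arrays, as labelled, are among the points. All points share tetracycline removal and replating of the cells, though the Zfp295 and Hunk clones were grown with more puromycin. The arrays of an experiment were normalised together. Mthfd2 (r = 0.92), Nars1 (0.90) and the glycine transporter Slc6a9 (0.89) followed the median of the other genes most closely. Ddit3 (0.35), Got1 (0.28), Phgdh (0.04) and Shmt1 (-0.22) followed it least.

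In the late experiments (39 and 48 h: Aire, Hunk, Pdxk, Ripk4, Sim2) the differences of 8 genes were lower than at 24 h. The median change of the list ranged from -0.41 to -0.07 in the 5 late experiments, with a middle value of -0.25, and from -0.31 to 0.10 in the 14 at 24 h on the same array, with a middle value of -0.09. In the limma test of late minus 24 h, 8 of 36 genes were called lower and none higher, against 5.73% of all probe sets called in either direction and 2.21% lower. Atf3 averaged -0.53 in the late experiments (-0.84 to -0.25) and -0.10 at 24 h (-0.39 to 0.05), a difference of -0.43 ± 0.08 (SE, n = 5 and 14 experiments, adjusted p = 0.00345). Chac1 averaged -0.98 late and -0.16 at 24 h, a difference of -0.82 ± 0.24 (adjusted p = 0.0419). The 2 sets of experiments overlapped for each of the 8 genes.

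The other 6 were Trib3 (-0.51 ± 0.13), Atf5 (-0.42 ± 0.11), the leucine-sensing stress protein Sesn2 (-0.33 ± 0.08), the leucine transporter Slc7a5 (-0.28 ± 0.07), Aars1 (-0.25 ± 0.07) and the dim Slc7a11 (-0.22 ± 0.06). None of the 10 synthesis enzymes differed past the test. The transgenes of the late experiments were not used at 24 h, so time and transgene cannot be told apart. Without Aire or without Sim2 the count was 2, without Pdxk it was 1, and Atf3 was called each time. Of all probe sets, 3.49% were called without Aire, 1.82% without Sim2 and 2.14% without Pdxk. With Pfkl counted as late, 8 genes were lower and 1 higher, where 7.27% of all probe sets were called. Over the same contrast the ATF4-response list had a median of -0.11 and all genes -0.01.

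**Figure D5:**
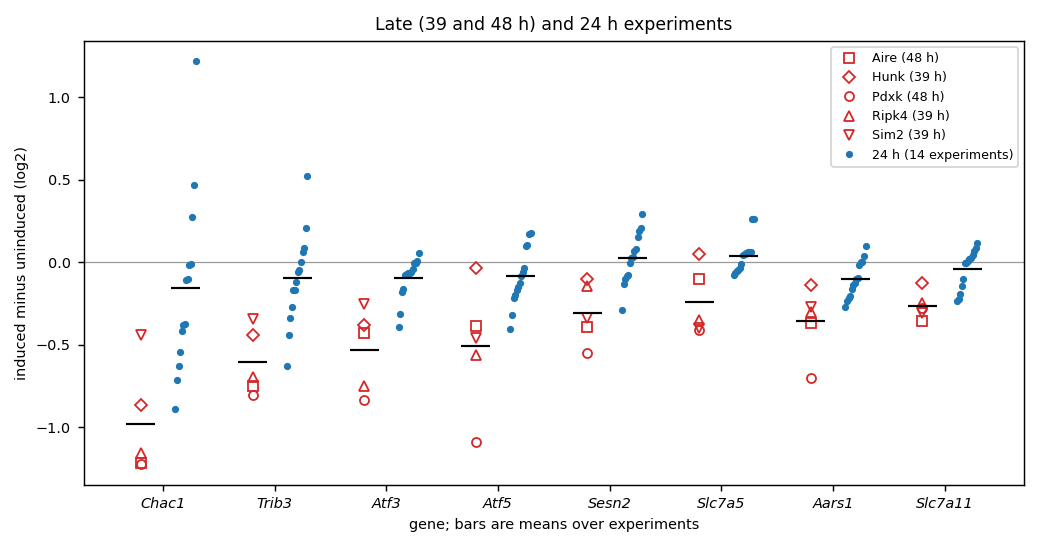
Induced minus uninduced log2 difference of the 8 genes called lower in late than in 24 h experiments, with each of the 5 late experiments as a red symbol, left of the 14 experiments at 24 h as blue points, and bars at the means. The largest gap is that of Chac1 (-0.98 late, -0.16 at 24 h), and the 2 sets overlap for each gene.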

How the data were processed

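The study profiled total RNA of 120 samples by oligo(dT)-primed labelling on Affymetrix arrays. The deposited values are log2 intensities per probe set that the authors obtained with RMA in the affy package, and array medians ran from 4.89 to 5.68 on Mouse 430_2 and from 7.11 to 7.19 on Mouse 430A_2, so levels are compared only within an experiment. Precision is limited by the number of arrays, 3 per state. The authors' test was Cyber-t, a Bayesian t statistic, which was not run here.

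Probe sets were named through the platform annotation, where 34958 of 45101 had 1 gene, 932 several and 9211 none. One probe set was missing from Sim2. Each experiment was fitted in limma 3.58.1 (R 4.3.3) with the clone as a block, and p-values were adjusted by Benjamini-Hochberg over all probe sets. A gene was called at an adjusted p under 0.05. For tests over experiments, 1 mean difference per experiment entered limma. The replicate number was taken to mark the clone. The study's gene tables for Aire, Erg, Nrip1, Runx1, Olig2 and Pdxk list the clones in the same order before and after induction, and that for Sim2 does not. Deviations of a pair correlated with r over 0.1 in 54 of 60 pairs and in every pair of 15 of 20 experiments, the others being Bach1, Gabpa, RIKEN-1810007M14, Hunk and Pfkl. Since the 3 clones carry the same transgene, p-values within an experiment measure the spread of the induced minus uninduced change between clones. Those of the tests over experiments measure the spread between experiments. Promoter sequences came from RefSeq. A further matching sequence is not reported here. The code was tested on simulated data. Alternatives were no block, a plain unpaired t-test in place of Cyber-t, no dim probe sets (lower quartile), a second quantile normalization, trended robust moderation, the mean of all probe sets of a gene, and leaving out clones or experiments.

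The genes and lists were chosen with earlier results of these data known. All genes of the list could be named. Array values are given for called genes, at most the 3 largest per direction and experiment, and for the 3 largest in Dyrk1a. Genes of the other lists were named after their values were seen.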

Additional observations from a re-analysis of the deposited data

Results flagged for a closer look

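Among the 5 late experiments, Sim2 stood far above the others for Ddit3 (1.30, with the next experiment at -0.20) and for Cbs (0.20, with the next at -0.03). These were 2 of 36 genes checked (5.56%), and chance gives about 1 in 20 (5%).

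The change on induction differed between late and 24 h experiments for 8 genes by the limma test of the difference itself, with late minus 24 h values of -0.82 for Chac1 (adjusted p = 0.0419), -0.51 for Trib3 (0.0205), -0.43 for Atf3 (0.00345), -0.42 for Atf5 (0.0333), -0.33 for Sesn2 (0.0173), -0.28 for Slc7a5 (0.018), -0.25 for Aars1 (0.0374) and -0.22 for Slc7a11 (0.0261).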

How the results depend on the processing

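The total of 47 calls was 27 with no replicate block, 9 with the plain t-test, 96 with trended robust moderation, 52 without dim probe sets, 48 after a second quantile normalization and 60 with the mean of all probe sets of a gene, and 26 to 67 when replicate 1, 2 or 3 was left out. With no replicate block the count was 0 in Aire, Pdxk, Olig2 and Sim2 and 16 in Erg. With the t-test it was 0 in the same 4 experiments, 3 in Erg, 6 in Runx1 and 0 in the 14 experiments with no call. Trended robust moderation gave 21 in Aire, 17 in Olig2, 11 in Pdxk, 3 in Hunk, 2 in Sim2 and 2 in Dyrk1a, both higher. The mean of all probe sets gave 9 in Olig2 and 0 in Sim2, with medians of -0.26 in Aire and -0.14 in Olig2, and the crossed clone order gave 0 in Sim2. With 1 replicate left out, the counts ran from 3 to 14 in Aire, 9 to 16 in Erg, 5 to 10 in Runx1, 0 to 25 in Pdxk, 0 to 6 in Gabpa, 0 to 2 in Hunk and 0 to 1 in Sim2, and were 1 each time in Olig2. The share of all probe sets called moved as well. It was 11.1% in Pdxk and 4.34% in Gabpa without replicate 2, and 0.244% in Aire without replicate 3. With 1 replicate left out it ran from 5.34% to 10.9% in Erg and from 9.50% to 12.4% in Runx1. The medians then ran from -0.28 to -0.27 in Aire, -0.22 to -0.16 in Olig2, -0.23 to -0.15 in Runx1 and -0.044 to -0.0025 in Olig1. Of 120 medians under alternatives, 110 stayed within 1 SD of the clones and 7 changed sign. No called gene changed sign under any alternative run.

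Over all experiments no gene was called, against 5 with Runx1 included, 1 with trended robust moderation (Psph), 2 with the mean of all probe sets (Psat1 and Psph), 1 without dim probe sets (Psph), 0 with no replicate block and 0 to 5 when an experiment was left out. At most 0.357% of all probe sets or genes were called in any of these fits. The late minus 24 h count of 8 was 1 to 9 when a late experiment was left out, 9 with Pfkl as late, 7 with trended robust moderation and 11 with the mean of all probe sets. The share of all probe sets called was 1.82% to 6.19%, 7.27%, 5.46% and, of all genes, 8.56% in the same order. Probe sets near background limit what can be said of Slc7a11, and changes are relative to each experiment's own normalization.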

Other observations

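Genes of neighbouring pathways, chosen after their values were seen, moved in the experiments with most calls. Gadd45a, a stress-induced growth arrest gene, was called lower in Aire (-0.48, limma adjusted p = 0.0134), Erg (-1.04, 0.000317) and Runx1 cells (-1.58, 0.000265). Jdp2, a repressor related to Atf3, was called lower in Aire (-0.84, 0.0199) and Erg cells (-1.09, 0.000871) and higher in Runx1 cells (0.49, 0.011). Cebpb, a factor that pairs with ATF4, was lower in Aire (-0.47, 0.0165) and higher in Runx1 cells (0.88, 0.00191). In Erg cells 4 of 14 measured tRNA synthetases outside the list were called lower, against 6.28% of all probe sets, Hars1 (-0.44), Rars1 (-0.41), Yars1 (-0.39) and Mars1 (-0.37), as was Impact, an inhibitor of the eIF2alpha kinase GCN2 (-0.78, 0.00146). Runx1 cells had Eif2ak4, which encodes GCN2, higher (0.44, 0.011), together with Ppp1r15a, a regulator of the eIF2alpha phosphatase (0.52, 0.00496). In the same arrays Xbp1 (-0.83, 0.00114), Herpud1 (-0.56, 0.00675) and Dnajb9 (-0.41, 0.0102) were called lower. Of all probe sets in Runx1 cells, 8.51% were called higher and 7.65% lower. In Sim2 cells, where Ddit3 was higher, so were Txnip (1.22, 0.0327) and Ddit4 (0.97, 0.0336), both stress-responsive inhibitors of metabolism and growth. No probe set of the array was called in Sim2 cells without clone 2 or with the uninduced clones crossed, so these calls were lost there too. Ddit4 was also called higher in Erg (0.83, 0.000614) and Runx1 cells (0.46, 0.0216). Txnip was called higher in Aire (0.48, 0.0382) and lower in Runx1 cells (-0.52, 0.00764). Stc2, of the same list, was called higher in Erg (0.33, 0.031) and, with another probe set, lower in Runx1 cells (-0.77, 0.00335).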
